A study of Arabidopsis thaliana with 42 samples.

Results

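Arabidopsis thaliana seedlings of the mutant line acs6E were compared directly with seedlings of the mutant line acs9B. The comparison used the 3 arrays titled acs6E and the 3 arrays titled acs9B, which are 6 of the 42 arrays of the series, and no Col (wild type) array entered it. The series studied lines with mutations in genes of ACC synthase, and its single mutant set held 8 lines and Col. Both lines of the comparison carry the name of 1 ACC synthase gene each, ACS6 and ACS9, and the labels give no allele, insertion or background for either. Seedlings of every group grew in the same way, on medium with sucrose, after 2 days of cold at 4 C, for 10 days at 25 C with 16 hours of light a day. Total RNA of light-grown seedlings was labelled with biotin and hybridised to 1-colour Affymetrix arrays, whose probe sets each stand for 1 transcript or a few similar ones. The titles call the 3 arrays of a line biological replicates, and the labels do not say whether they came from separate plates or harvests. The line acs5D, another single mutant line grown and labelled as these were, is given beside both; it was chosen because its arrays share their level of the bacterial hybridisation control bioC (8.95 to 9.08, against 8.96 to 9.01 in acs6E and 8.99 to 9.30 in acs9B).

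ACC synthase makes ACC, the direct precursor of the gaseous plant hormone ethylene, and ACC oxidase turns ACC into ethylene. Its genes form a family whose members are expressed in different tissues and form active dimers with each other, and ACS6 protein is stabilised by MAP kinases during stress while ACS9 belongs to the group whose protein is turned over by ETO1. Ethylene is sensed by membrane receptors that act through EIN2 on the transcription factor EIN3, and in seedlings it is known for its effects on elongation, root growth and stress responses. The mutated genes themselves were not analysed here, since none of the named probe sets stands for an ACC synthase gene, and the line labels were not checked against them.

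The lines differed at many genes, mostly by small amounts. Levels are the authors' log2 values, on which a difference of 1 is a 2-fold difference, and a difference is always acs6E minus acs9B. A probe set was called when limma's adjusted p (Benjamini-Hochberg over 22746 probe sets) was below 0.05. Of the 22746 probe sets, 7020 were called (30.9%), with 3614 higher in acs6E (15.9%) and 3406 lower (15%). Most of the calls were small: 4966 differed by under 0.5, 1647 by 0.5 to 1, 358 by 1 to 2 and 49 by over 2. Calls with a difference of at least 1 numbered 407 (1.79%), of which 205 were higher in acs6E (0.901%) and 202 lower (0.888%). The median difference of all probe sets was -0.0259, and the median SD between the arrays of a line was 0.0722 in acs6E and 0.0888 in acs9B. A single gene was named for 13513 probe sets, but only 1580 of these had a gene symbol, of which 541 were called. The arrays of the lines did not overlap at 44.9% of all probe sets. Genes named below for the largest differences were chosen among called genes without overlap, so for them its absence follows from the choice.

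**Figure D1:**
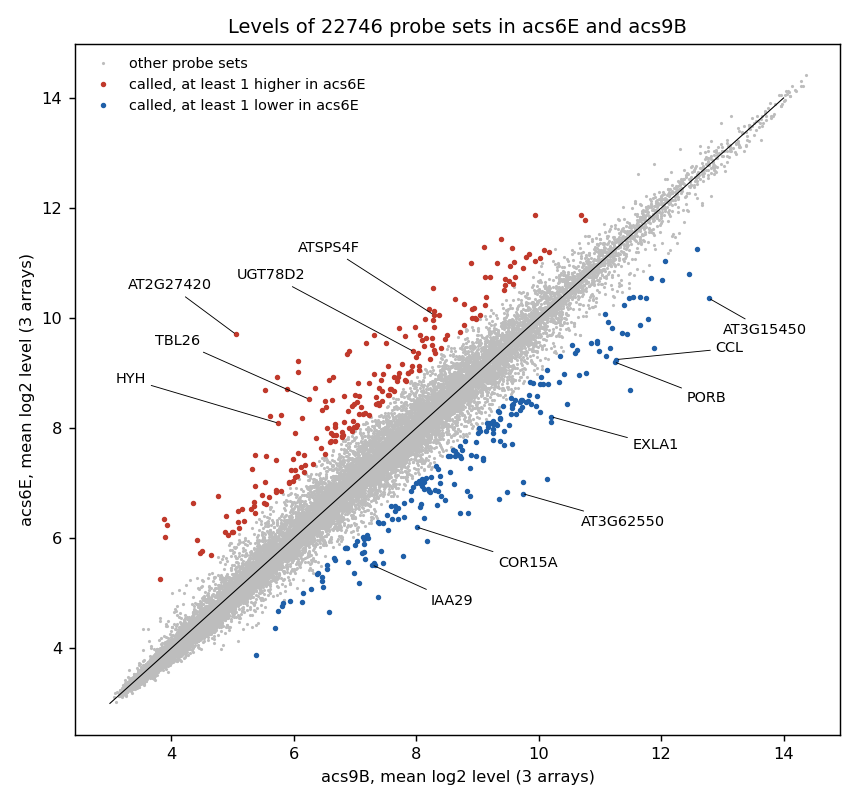
Mean log2 level of each of the 22746 probe sets over the 3 acs9B arrays (x axis) and the 3 acs6E arrays (y axis), with the line of equal levels. Most probe sets lie along the line, and the 205 red points (called and at least 1 higher in acs6E) and 202 blue points (called and at least 1 lower) are spread over most of the range of levels.

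Transcripts added during labelling and hybridisation did not pass the test between the lines. Of 45 bacterial and phage control probe sets, limma called 0 (0 also at an unadjusted p below 0.05, and 0 in a fit of the 24 arrays of all lines), with differences between -0.19 and 0.20. The differences of 39 of the 45 were below 0, and their part in the results was not tested. Correlations over all probe sets were 0.998 to 0.999 between acs6E arrays, 0.997 between acs9B arrays and 0.986 to 0.989 between the lines. The ratio of 3' to 5' probe sets, which rises as RNA is degraded or labelled less fully, moved with the line: the log2 difference for actin was 2.11 to 2.26 in acs6E and 1.99 to 2.03 in acs9B, and for GAPDH 0.108 to 0.206 in acs6E and 0.221 to 0.348 in acs9B. Neither line was the higher one for both genes, and the part of RNA quality in the results was not tested.

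Markers of organs, which would move if the lines differed in their share of roots, leaves or seeds, were measured through few probe sets. Of all probe sets 30.9% were called (15.9% higher and 15% lower in acs6E), so counts over so few markers decide little. Of 14 root markers 3 were measured (PYK10, EXPA7 and AT5G66390) and 0 were called, and their mean level was 9.60 to 9.82 in acs6E and 9.65 to 9.77 in acs9B. Of 12 leaf markers 3 were measured: RCA, the activase of Rubisco, was not called, SPCH, which starts the stomatal lineage, was higher by 0.39, and FMA, which ends it, was lower by 0.42. The mean of those 3 was 9.29 to 9.48 in acs6E and 9.33 to 9.37 in acs9B, and RCA alone was at 14.21, 14.22 and 14.23 in acs6E and at 14.12, 14.18 and 14.11 in acs9B. The 1 seed marker measured of 13, AT3G15670, was lower by 0.57 in acs6E, at 4.30 to 4.50 against 4.73 to 5.14, and the 1 flower and pollen marker of 14, AT5G45880, was not called at 4.53 to 4.59 against 4.59 to 4.77. In RNA of whole seedlings, fewer cells of a type and less RNA per cell cannot be told apart, and the part of organ shares in the results was not tested.

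Genes that are known to rise in plants short of sugar or kept in the dark were lower in acs6E. All 6 measured members of that list (of 25 entries) were called lower, with a median difference of -1.28, where 15% of all probe sets were called lower. The lists were chosen with earlier results of these data known, so this count is a description. CCL, whose short-lived mRNA is under clock control, lay at 9.27, 9.15 and 9.32 on the acs6E arrays and at 11.12, 11.29 and 11.40 on the acs9B arrays. Every acs6E array was below every acs9B array, and the difference was -2.03 ± 0.084 (SE; limma adjusted p = 9.8e-08, n = 3 and 3). AKINBETA1, a beta subunit of the SnRK1 kinase that responds to energy shortage, lay at 8.47, 8.48 and 8.35 in acs6E and at 9.61, 9.94 and 10.08 in acs9B. Its arrays did not overlap either, with a difference of -1.45 ± 0.11 (limma adjusted p = 3.9e-06).

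The breakdown of branched-chain amino acids, which feeds respiration when sugar is scarce, was lower at 4 of 8 measured genes (50%, against 15% of all probe sets) and higher at 0, with a median of -0.24. MCCA, MCCB and IVD are also members of the sugar starvation list above, so these counts share genes. MCCA and MCCB encode the subunits of methylcrotonyl-CoA carboxylase, a step of leucine breakdown. MCCA lay at 7.98, 8.17 and 8.05 in acs6E and at 9.19, 9.53 and 9.81 in acs9B, and MCCB at 8.58, 8.64 and 8.75 against 9.16, 9.18 and 9.14. All acs6E values of both genes were below all acs9B values, and the differences were -1.44 ± 0.13 for MCCA (limma adjusted p = 1.5e-05) and -0.51 ± 0.067 for MCCB (limma adjusted p = 0.00022). IVD, the dehydrogenase of the same pathway, differed by -0.33 ± 0.090 and ALDH6B2, of valine breakdown, by -0.29 ± 0.076; IVD lost its call in 5 alternative settings and ALDH6B2 in 1. Without acs6E replicate 3 the count of lower genes fell from 4 to 2. The electron transfer genes ETFALPHA, ETFBETA and ETFQO, at -0.16, -0.18 and -0.11, and D2HGDH, at 0.16, were not called.

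ATG8 proteins coat the membranes that carry cell contents to the vacuole during autophagy, the recycling that starvation induces. Of 9 ATG8 probe sets 4 were lower in acs6E (44.4%, against 15% of all probe sets) and 0 were higher, with a median of -0.17. ATG8E is also a member of the sugar starvation list. ATG8E lay at 8.28, 8.63 and 8.61 in acs6E and at 9.52, 9.68 and 9.65 in acs9B, a difference of -1.11 ± 0.096 with no overlap (limma adjusted p = 1.2e-05). ATG8F, at 10.30, 10.35 and 10.31 in acs6E and at 10.87, 10.77 and 10.81 in acs9B, differed by -0.49 ± 0.062 and ATG8C by -0.35 ± 0.089. The probe set named APG8H differed by -0.22 and lost its call in 6 alternative settings. The other 5 were not called and lay between -0.17 and 0.18.

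Sugar synthesis and transport showed members on both sides, where 30.9% of all probe sets were called. ATSPS4F, a sucrose phosphate synthase, was among the highest of the genes with a symbol: it lay at 9.99, 10.08 and 10.12 in acs6E and at 8.47, 8.40 and 7.99 in acs9B. The lines did not overlap, and the difference was 1.78 ± 0.11 (limma adjusted p = 1.4e-06). In the starch and sucrose list all 4 measured members (of 24) were called, 2 in each direction: APL3, a subunit of the enzyme that makes ADP-glucose for starch, was higher by 0.40 and the starch branching enzyme SBE2.2 by 0.21, while DPE1, a plastid glucanotransferase of starch breakdown, was lower by 0.70 and QQS, which is known to alter starch content, by 0.32. The calls of APL3, SBE2.2 and QQS were lost in 4, 4 and 3 alternative settings, and without acs6E replicate 2 or acs6E replicate 3 no member was higher. Of 15 SWEET sugar transporters 5 were higher (33.3%) and 2 lower (13.3%, near the 15% of all probe sets), with a median of -0.078, led by SWEET2 (0.66), SWEET13 (0.63) and SWEET11 (0.56) on one side and by SWEET4 (-0.46) and SWEET16 (-0.34) on the other. Without acs6E replicate 3 the count of higher SWEET genes was 3, and without acs6E replicate 1 the count of lower ones was 4.

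Among the genes with a symbol and the largest differences were also ASPGB1 and GAT1_2.1. ASPGB1, an asparaginase that releases ammonium from asparagine, lay at 8.19, 8.10 and 8.10 in acs6E and at 7.04, 6.96 and 6.89 in acs9B, higher in acs6E by 1.16 ± 0.067 (limma adjusted p = 9.2e-07). GAT1_2.1, a glutamine amidotransferase-like gene, lay at 7.35, 7.35 and 7.07 in acs6E and at 8.31, 8.26 and 8.51 in acs9B, with a difference of -1.102 ± 0.094 (limma adjusted p = 1.1e-05). Neither gene overlapped between the lines, which the choice of these genes required.

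**Figure D2:**
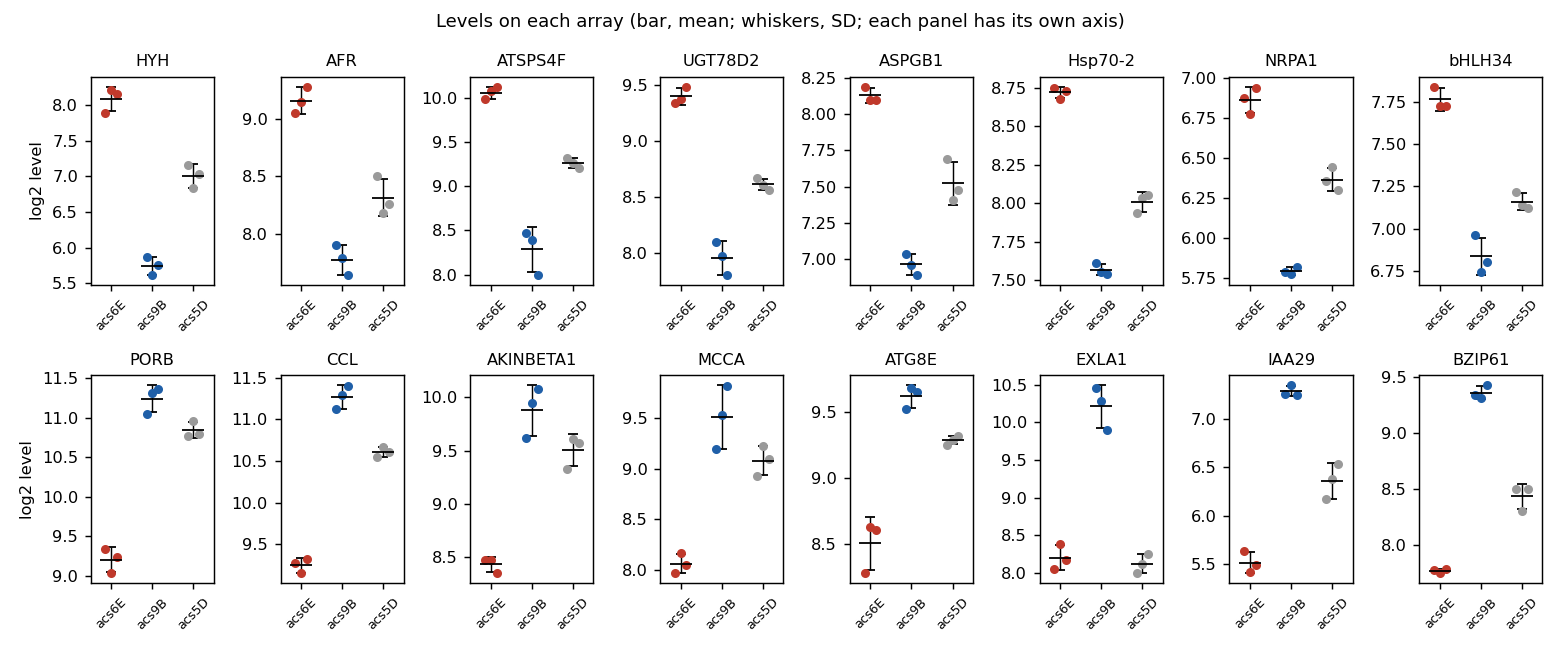
Log2 level of 16 genes on each of the 3 arrays of acs6E (red), acs9B (blue) and acs5D (grey), with the mean (bar) and SD (whiskers), each panel on its own log2 axis that does not start at 0. In every panel the acs6E and acs9B points do not overlap, which the choice of all these genes but bHLH34 required. In all but EXLA1, where acs5D is at the acs6E level, the acs5D mean lies between those of the other lines.

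Light signalling and chlorophyll synthesis held some of the largest differences. HYH, a bZIP transcription factor close to HY5 that promotes light-dependent development, lay at 7.90, 8.22 and 8.16 in acs6E and at 5.86, 5.61 and 5.76 in acs9B. No array overlapped, and HYH was higher in acs6E by 2.35 ± 0.096, or 5.09-fold (limma adjusted p = 9.3e-08). It was the only 1 of 23 light signalling entries that was measured. AFR, an F-box protein of far-red light signalling through phytochrome A, lay at 9.05, 9.15 and 9.28 in acs6E and at 7.90, 7.78 and 7.64 in acs9B, higher by 1.39 ± 0.086 (limma adjusted p = 1.4e-06).

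Of the chlorophyll and tetrapyrrole list, 5 of 20 entries were measured and 4 were lower in acs6E (80%, against 15% of all probe sets), with a median of -0.27. PORB, a light-dependent protochlorophyllide reductase that makes chlorophyllide in light, lay at 9.33, 9.03 and 9.24 in acs6E and at 11.04, 11.32 and 11.37 in acs9B. The groups were far apart, with a difference of -2.04 ± 0.10 or 4.12-fold (limma adjusted p = 3.6e-07). The other calls were small: HEMA2, a glutamyl-tRNA reductase, differed by -0.34, CHLI2, a magnesium chelatase subunit, by -0.27, and CHLM, the methyltransferase that follows it, by -0.24. GSA1, of the step after HEMA2, was not called at 0.17. Without acs6E replicate 2 the count of lower genes fell from 4 to 2.

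Most photosynthesis genes were not called. In the nucleus 0 of 5 measured members (of 40) were called, with LHCB4.1, LHCB4.2, PSAE-1 and PSAN at -0.13 to -0.15 and RCA at 0.090, but 3 were called lower in the fits of the 24 arrays of the lines, of the 27 arrays with Col, and with a trend and robust prior. Of 33 plastid-encoded photosystem, cytochrome, ATP synthase and Rubisco genes 0 were higher and 2 lower, petD by 0.27 and petL by 0.24 (6.06% called, against 30.9% of all probe sets), and the calls of both were lost in some alternative settings (3 and 5). Of 19 plastid ribosomal and polymerase genes only rpl16 was called, at -0.26, and its call was lost in 2. The NADH dehydrogenase-like (NDH) complex of the plastid, which cycles electrons around photosystem I, had 3 lower and 0 higher of 10. Its share called, 30%, was near the 30.9% of all probe sets, of which 15% were called lower. ndhK lay at 10.40, 10.70 and 10.65 in acs6E and at 11.12, 11.42 and 11.42 in acs9B, and ndhJ at 11.21, 11.41 and 11.38 against 11.74, 11.96 and 11.97. The differences were -0.73 ± 0.10 for ndhK (limma adjusted p = 3e-04) and -0.56 ± 0.084 for ndhJ (limma adjusted p = 0.00053), while ndhC, encoded beside them in the plastid genome, was not called at -0.099. ndhF was lower by 0.48.

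Mitochondrial genes named in the annotation numbered 16, of which 1 was higher and 3 lower when 1 probe set stood for each gene. Their share called was 25%, against 30.9% of all probe sets. Over all 23 mitochondrial probe sets 2 were higher and 3 lower, because nad5 has a probe set that was higher by 0.30 (limma adjusted p = 0.031) beside the one counted, which was not called at -0.15. cox1, a subunit of cytochrome oxidase, lay at 8.68, 8.85 and 8.75 in acs6E and at 9.16, 9.39 and 9.30 in acs9B, a difference of -0.52 ± 0.078 (limma adjusted p = 0.0005). orfX (-0.31), ccb203 (-0.28) and matR (0.24) lost their calls in 3, 5 and 3 alternative settings, and the probe sets of orfX and matR are of a type that can match several transcripts. Without acs6E replicate 3, and likewise without acs9B replicate 3, 1 mitochondrial gene was lower. Probes for organelle transcripts read RNA that mostly lacks a poly(A) tail, so how much of it was labelled is not known. By genome part, 11.8% to 13.8% of the single-gene probe sets on each of chromosomes 1 to 5 were higher and 13.8% to 15.3% lower.

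Clock genes did not pass the test: GI, COR27 and AT4G33980, the 3 measured of 22, lay at 0.03, -0.04 and -0.06. Of all probe sets 30.9% were called, so the counts of this and the following short lists do not set their genes apart. The 4 reference genes measured of 12, which are chosen elsewhere for steady expression, gave 0 calls, with GAPC2 at 0.11, AT2G28390 at 0.01, PEX4 at -0.06 and AT4G34270 at -0.16. The touch and wound list gave 0 calls of 2 measured (of 29), although 1 was lower without acs6E replicate 1 and 1 was higher without acs9B replicate 3: STZ, a zinc finger repressor of stress responses, lay at 7.77, 6.59 and 7.05 in acs6E and at 7.22, 7.76 and 8.02 in acs9B, which overlapped. The 1 heat shock entry measured of 17, ATHSP22.0, was not called at 0.13. Of 21 pathogen defence entries 4 were measured, with 1 higher (PDF1.2) and 1 lower (THI2.2), and of 24 iron and metal entries 3, with 1 higher (PYE) and 1 lower (BHLH101).

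Expansins and XTH enzymes were called lower in acs6E at 10 of 28 probe sets. Expansins loosen the wall by acting on contacts between its polymers, and XTH enzymes cut and rejoin xyloglucan. The 10 lower members were 35.7% (15% over all probe sets) and the 2 higher members 7.14% (15.9% over all), with a median difference of -0.14. EXLA1, an expansin-like gene, lay at 8.06, 8.39 and 8.17 in acs6E and at 10.45, 10.29 and 9.90 in acs9B. Its groups did not overlap, and it was lower in acs6E with a difference of -2.01 ± 0.13 (limma adjusted p = 1.8e-06). EXPA16, an alpha-expansin, lay at 5.52, 5.43 and 5.18 in acs6E and at 7.22, 7.09 and 6.64 in acs9B, with a difference of -1.61 ± 0.14 (limma adjusted p = 1.1e-05).

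Further members of these families followed at smaller sizes. XTH33 differed by -1.05 ± 0.12, EXLA2 by -0.83 ± 0.079 and XTH16 by -0.56 ± 0.081, each without overlap between the lines. The other lower members, EXGT-A3, XTH20, EXPB5, EXPB3 and EXPA24, lay between -0.30 and -0.27. EXPB5 and EXPA24 lost their calls in 3 and 4 alternative settings, and EXGT-A3 and EXPB3 in 1 each. XTH19 (0.28) and EXPA18 (0.26) were higher, but lost their calls in 4 and 9 alternative settings. Leaving out arrays moved the count of higher members from 2 to 0 (without acs6E replicate 3, acs9B replicate 2 or acs9B replicate 3) or to 5 (without acs9B replicate 1). The count of lower members fell from 10 to 7 without acs6E replicate 3. The 16 members that were not called lay between -0.18 and 0.22.

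Other wall families were called at 25% to 40% of their members, near the 30.9% over all probe sets. Of 8 cellulose synthase-like genes 2 were lower: CSLC04, which makes the glucan backbone of xyloglucan, lay at 8.77, 8.79 and 8.88 in acs6E and at 9.89, 9.94 and 9.87 in acs9B, a difference of -1.09 ± 0.063 (limma adjusted p = 9.4e-07). CSLA03, of the mannan synthase group, differed by -0.74 ± 0.085, and the other 6 lay between -0.11 and 0.08. TBL proteins, several of which add acetyl groups to wall polysaccharides, had 5 higher and 2 lower of 22. TBL26 stood apart from the rest of its family, at 8.38, 8.46 and 8.75 in acs6E and at 6.68, 6.07 and 5.996 in acs9B, a difference of 2.28 ± 0.16 (limma adjusted p = 2.8e-06). The next, TBL37, differed by 0.53. GH9 cellulases had 4 higher, GH9B13 most at 0.58, and 2 lower of 15; with the Col arrays in the fit 2 were higher. Of 7 tubulins, the subunits of microtubules, TUB5 (-0.88) and TUB6 (-0.36) were lower and 5 were not called.

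Tetraspanins, membrane proteins that organise signalling patches and are found on plant vesicles, had 8 lower (53.3%, against 15% of all probe sets) and 1 higher (6.67%, against 15.9%) of 15, with a median of -0.21. TET10 lay at 8.66, 8.55 and 8.57 in acs6E and at 9.47, 9.46 and 9.41 in acs9B, and TET8 at 9.73, 9.65 and 9.60 against 10.36, 10.47 and 10.29. The differences were -0.85 ± 0.064 for TET10 (limma adjusted p = 4.6e-06) and -0.71 ± 0.071 for TET8 (limma adjusted p = 3.1e-05). TET5, TET3 and TET7 followed at -0.53, -0.49 and -0.46, and TET2 was the higher one at 0.26, a call lost in 3 alternative settings. The lower member TET14 (-0.20) lost its call in 8, and the count of lower members fell to 7.

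Auxin response genes were lower in acs6E where they were called. Of 8 measured (of 30), 5 were lower (62.5%, against 15% of all probe sets) and 0 higher, with a median of -0.25. IAA29, a repressor of auxin-regulated transcription whose own gene responds to shade and warmth, lay at 5.63, 5.42 and 5.49 in acs6E and at 7.26, 7.35 and 7.25 in acs9B. The arrays of a line were close together and the lines far apart, with a difference of -1.77 ± 0.073 or 3.41-fold (limma adjusted p = 9.8e-08). GH3 enzymes join auxin to amino acids: WES1 (also known as GH3.5) differed by -0.90 ± 0.095, GH3.3 by -0.42 ± 0.11 and GH3.1 by -0.27 ± 0.077. HAT2, an auxin-induced homeodomain factor, differed by -0.24, and IAA20, IAA30 and LBD29 were not called, at -0.05, -0.10 and 0.06. The calls of HAT2, GH3.1 and GH3.3 were lost in 5, 4 and 1 alternative settings, and the count of lower genes was 3 without acs6E replicate 2, acs6E replicate 3 or acs9B replicate 2. IAGLU, a glucosyltransferase of the auxin indole-3-acetic acid, was higher in acs6E: it lay at 8.11, 8.30 and 8.37 against 6.96, 7.05 and 7.20, a difference of 1.19 ± 0.087 (limma adjusted p = 3.7e-06).

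The ethylene pathway, in which the mutated genes act, was measured through 3 probe sets of 33 entries, all called and all with small differences. Of all probe sets 30.9% were called. EIN3, the transcription factor at the end of the signalling chain, lay at 9.54, 9.55 and 9.59 in acs6E and at 9.73, 9.95 and 9.94 in acs9B, lower by 0.32 (SE 0.075, limma adjusted p = 0.0082). RTE1, a membrane protein that acts with the receptor ETR1, lay at 7.75, 7.70 and 7.69 in acs6E and at 8.14, 8.20 and 8.14 in acs9B, lower by 0.44 (SE 0.061, limma adjusted p = 0.00029). AT1G12010, which the annotation lists by its locus code, lay at 7.46, 7.57 and 7.36 in acs6E and at 7.07, 7.18 and 7.15 in acs9B, higher by 0.33 (SE 0.073, limma adjusted p = 0.0054). All 3 were without overlap between the lines, as were 44.9% of all probe sets.

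Gibberellin and brassinosteroid genes gave 3 calls of 3 measured (of 23), where 30.9% of all probe sets were called. GID1A and GID1B, which encode gibberellin receptors, differed in opposite directions, at -0.30 ± 0.075 and 0.33 ± 0.076. EXO, a growth gene induced by brassinosteroid, differed by -0.51 ± 0.078, and its call was lost in 2 alternative settings. In the cold and drought list, COR15A, a chloroplast protein that protects membranes during freezing, lay at 6.09, 6.13 and 6.39 in acs6E and at 8.40, 8.24 and 7.39 in acs9B, a difference of -1.80 ± 0.21 (limma adjusted p = 8.7e-05). COR15B, its close copy, differed by -0.36 and lost its call in 5 alternative settings, and COR47 (-0.18) and LTI30 (0.02) were not called. COR15A and COR15B are similar in sequence, and their probes may share some signal.

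Flavonoid genes were higher in acs6E at 4 of 5 measured members (of 22), with a median of 0.57, where 15.9% of all probe sets were called higher. UGT78D2, which puts glucose on flavonols and anthocyanins, lay at 9.33, 9.37 and 9.48 in acs6E and at 8.10, 7.97 and 7.80 in acs9B. UGT78D1, which adds rhamnose to flavonols, lay at 8.99, 9.04 and 9.13 against 8.07, 8.13 and 7.96. Neither overlapped, and they were higher by 1.44 ± 0.084 (limma adjusted p = 9.5e-07) and 1.00 ± 0.071 (limma adjusted p = 3e-06). AT4G14090, listed by its locus code, differed by 0.57 ± 0.084, and UF3GT, a glycosyltransferase of the pathway, by 0.26, a call that was lost in 5 alternative settings. DFR, the reductase at the branch to anthocyanins, overlapped between the lines and was not called (0.28, limma adjusted p = 0.19). The called members are glycosyltransferases, which modify finished flavonoids, and the list held no measured enzyme of the steps before DFR.

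The wider family of UDP-glycosyltransferases, which attach sugars to hormones, defence compounds and other small molecules, was split. Of 49 probe sets 18 were higher (36.7%, against 15.9% of all), 7 lower (14.3%, against 15%) and 24 not called, with a median of 0.029. The count of higher members was 15 without acs6E replicate 3 or acs9B replicate 3. Besides UGT78D2, IAGLU and UGT78D1, the highest were UGT76E11 at 1.07 ± 0.11, UGT71B1 at 1.03, UGT84A1 at 0.79, UGT74D1 at 0.77 and UGT74B1, which works in glucosinolate synthesis, at 0.70. Of the 7 lower members 4 were of the UGT85A branch: UGT85A4 (-1.08), UGT85A5 (-0.96), UGT85A2 (-0.68) and UGT85A3 (-0.33). The fifth measured UGT85A gene, UGT85A7, was not called at -0.20. The branch was singled out after its values were seen, its members are close in sequence and their probes may share signal.

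Other families of small-molecule enzymes and the defensins were called at 28.6% to 35.7% of their members, near the 30.9% of all probe sets. Of 19 CYP71B cytochromes P450 5 were higher and 1 lower, led by CYP71B36 at 1.05 ± 0.099, and the count of higher members ranged from 3 (without acs6E replicate 2 or acs6E replicate 3) to 7 when arrays were left out in turn. Of 14 glutathione transferases 3 were higher, GSTU23 (0.69) and GSTU16 (0.58) most, and 2 lower. The calls of ATGSTF13 (0.26) and of the lower members GSTU20 (-0.25) and GSTU26 (-0.24) were lost in 6, 3 and 1 alternative settings. Of 21 beta-glucosidases 1, BGLU40, was higher (0.88) and 5 were lower, BGLU19 (-0.77) and BGLU46 (-0.63) most. Of 13 defensins and thionins, small antimicrobial peptides, PDF1.4 (0.60), PDF1.2 (0.39) and PDF1.2b (0.33) were higher and THI2.2 (-0.72) was lower. PDF1.2 and PDF1.2b are near copies, the PDF1.2b probe set is of a type that can match other transcripts, and the count of higher members was 1 when the arrays of all 8 lines entered the fit.

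Chaperones were higher in acs6E at 10 of 18 measured members (55.6%, against 15.9% of all probe sets) and lower at 2 (11.1%, against 15%), with a median of 0.23. Without acs6E replicate 3, and likewise without acs9B replicate 3, the count of higher members was 7. Hsp70-2, a heat shock protein of the Hsp70 class that folds other proteins, lay at 8.75, 8.68 and 8.73 in acs6E and at 7.61, 7.55 and 7.54 in acs9B, higher by 1.15 ± 0.062 (limma adjusted p = 5.9e-07). Hop3, which links Hsp70 to Hsp90, lay at 6.48, 7.07 and 6.70 against 5.89, 5.53 and 5.36, higher by 1.16 ± 0.15 (limma adjusted p = 0.00023). Neither overlapped between the lines. Cpn60beta2, a subunit of the chaperonin that folds chloroplast proteins, was higher by 1.03 ± 0.066, Cpn60beta3 by 0.54, and BOB1, a small chaperone, by 0.43.

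Fes1 proteins, which bind Hsp70 and help it to exchange its nucleotide, went both ways. Fes1A lay at 7.75, 7.94 and 7.77 in acs6E and at 6.87, 6.997 and 7.11 in acs9B, higher by 0.83 ± 0.082 (limma adjusted p = 2.8e-05). Fes1B lay at 5.75, 5.27 and 5.62 against 7.15, 7.30 and 7.50, lower with a difference of -1.77 ± 0.12 (limma adjusted p = 2.6e-06). Fes1C lay at 7.17, 7.16 and 7.17 against 7.81, 7.86 and 7.86, with a difference of -0.68 ± 0.060 (limma adjusted p = 1.3e-05). ATHSP22.0, HSA32, CLPB2 and the 3 ATERDJ genes were not called, at -0.02 to 0.18, and ATJ1, Cpn60beta4 and Hop1, higher by 0.21, 0.26 and 0.26, lost their calls in 12, 9 and 4 alternative settings.

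Nuclear RNA polymerase subunits had 6 higher (50%, against 15.9% of all probe sets) and 0 lower of 12, with a median of 0.18. Leaving out any 1 acs6E array took the count of higher members to 4. NRPA1, the largest subunit of RNA polymerase I, which transcribes ribosomal RNA genes, lay at 6.88, 6.78 and 6.94 in acs6E and at 5.79, 5.78 and 5.82 in acs9B, higher by 1.07 ± 0.066 (limma adjusted p = 1.4e-06). NRPA2, the next largest subunit of that polymerase, lay at 8.52, 8.24 and 8.37 against 7.75, 7.63 and 7.78, higher by 0.65 ± 0.082 (limma adjusted p = 0.00015). Both were without overlap. The RNA polymerase III subunits NRPC2 and NRPC1 differed by 0.37 and 0.30, and NRPB7 and NRPB12 by 0.28 and 0.21; the calls of NRPC2, NRPC1 and NRPB12 were lost in 2, 5 and 7 alternative settings.

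Transcription factors stood at both ends. Of 15 bZIP factors 4 were higher (26.7%, against 15.9% of all probe sets) and 4 lower (26.7%, against 15%). HYH led one side, followed by bZIP58 (0.72) and bZIP44 (0.72), and BZIP61 led the other. BZIP61 lay at 7.77, 7.75 and 7.79 in acs6E and at 9.34, 9.32 and 9.43 in acs9B, with a difference of -1.60 ± 0.063 (limma adjusted p = 8.1e-08). BZIP34 and BZIP53, which acts in low-energy responses, were lower by 0.67 and 0.55. BZIP60, lower by 0.21, lost its call in 6 alternative settings, and the count of lower members ranged from 3 to 5 over the alternatives. WRKY22, a factor of pathogen responses, lay at 6.21, 5.60 and 5.86 in acs6E and at 6.70, 7.20 and 7.54 in acs9B, a difference of -1.26 ± 0.19 (limma adjusted p = 0.00058), with the wider spread of the arrays visible in its SE. MYC4, a jasmonate-response factor, was higher by 1.06 ± 0.12 and TRY, a repressor of trichome fate, by 1.16 ± 0.13.

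Factors of the iron response, basic helix-loop-helix proteins that act in a cascade, went both ways, with 2 higher, 2 lower and 3 not called of 7. Their share called was 57.1%, against 30.9% of all probe sets. bHLH34 lay at 7.84, 7.73 and 7.72 in acs6E and at 6.96, 6.75 and 6.80 in acs9B, higher by 0.93 ± 0.075 (limma adjusted p = 7.4e-06). bHLH121, an activator in the same cascade, lay at 8.55, 8.47 and 8.49 against 9.20, 9.30 and 9.30, with a difference of -0.76 ± 0.065 (limma adjusted p = 1e-05). BHLH101 overlapped between the lines: it lay at 5.53, 5.93 and 5.30 in acs6E and at 5.73, 6.64 and 6.66 in acs9B, and its call (-0.76 ± 0.23, limma adjusted p = 0.027) was lost in 6 alternative settings. PYE, a repressor in the cascade, was higher by 0.32. LPR1, a ferroxidase of the root response to low phosphate, was higher by 1.13 ± 0.095.

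**Figure D3:**
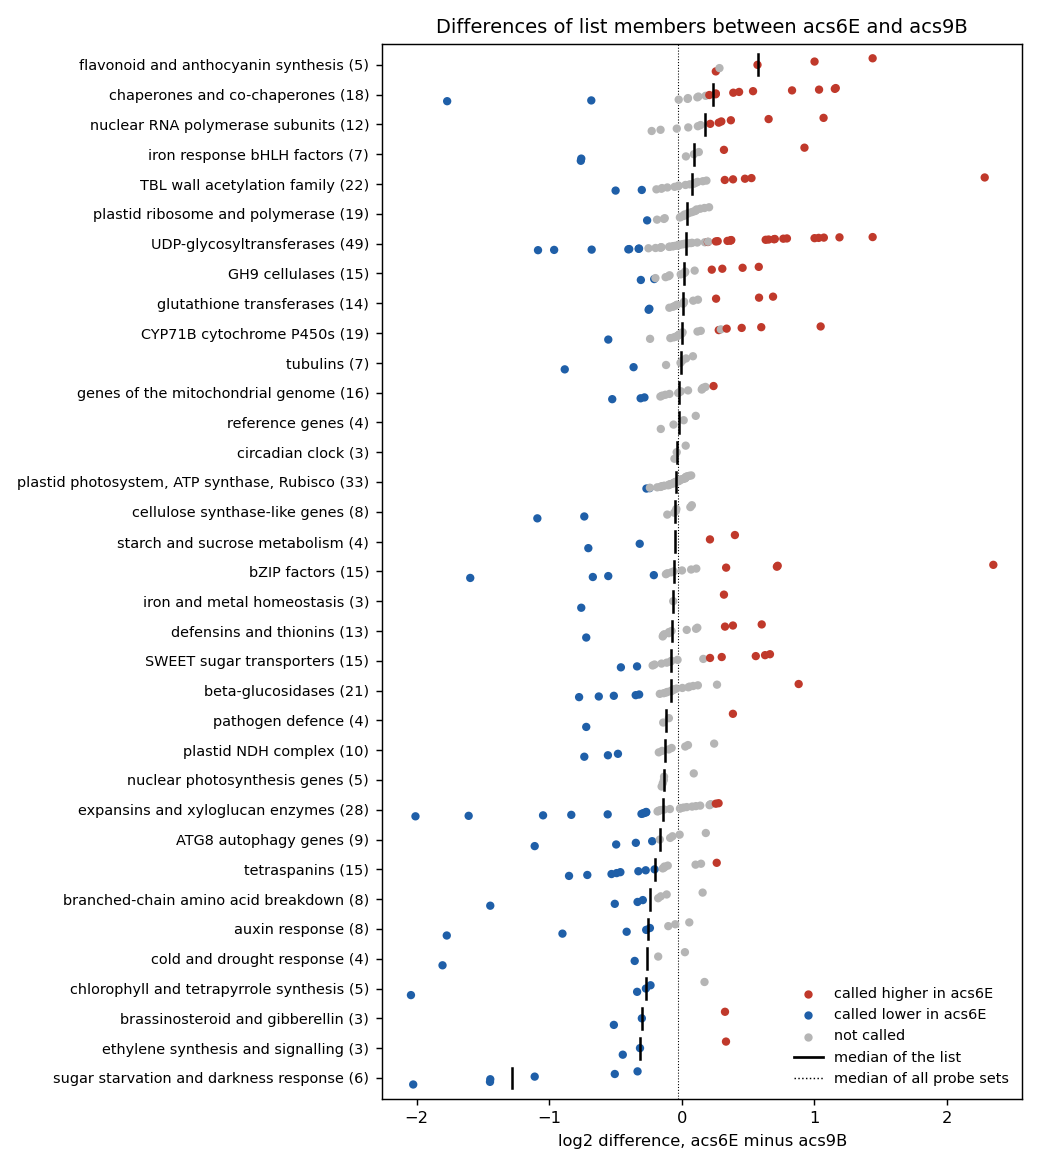
Log2 difference, acs6E minus acs9B, of each measured member (points) of the gene lists and families with at least 3 measured members, whose number stands in brackets, with the median of each list (bar) and of all probe sets (dotted line, -0.0259). The sugar starvation list has all 6 members called lower, with a median of -1.28, while plastid ribosome, clock, reference and photosynthesis genes lie near the dotted line; a gene can stand in more than 1 list.

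The largest differences of all named genes belonged to genes that the annotation lists only by locus code. AT2G27420 lay at 9.52, 9.76 and 9.84 in acs6E and at 5.77, 4.76 and 4.64 in acs9B, a difference of 4.65 ± 0.24 or 25.1-fold (limma adjusted p = 3.9e-07). AT2G15020 lay at 8.72, 8.96 and 9.12 against 5.72, 5.81 and 5.68, a difference of 3.20 ± 0.095 (limma adjusted p = 1.5e-08). Both were far apart in the lines, and for AT2G27420 replicate 1 of acs9B lay above the other acs9B arrays. AT5G42760 (3.14), AT3G44450 (2.81), AT5G20790 (2.61), AT1G60590 (2.47) and AT4G19430 (2.47) followed.

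On the other side AT3G62550 lay at 7.03, 6.76 and 6.65 in acs6E and at 9.69, 9.67 and 9.85 in acs9B, a difference of -2.93 ± 0.098 (limma adjusted p = 3.3e-08). AT2G15960 lay at 7.01, 6.93 and 7.13 against 9.66, 9.70 and 9.88, a difference of -2.72 ± 0.080 (limma adjusted p = 1.5e-08). The arrays of each line were tight for both. AT3G15630 (-2.63), AT3G62950 (-2.43), AT3G15450 (-2.42) and AT1G02660 (-2.12) followed. AT2G20670 was the most uneven of the 15 most lowered genes, at 10.08, 8.58 and 9.26 in acs6E and 10.87, 11.17 and 11.27 in acs9B (-1.79 ± 0.28, limma adjusted p = 0.00071). Of the 30 genes with the largest rise or fall, 23 are known here by locus code alone.

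A difference between lines does not say which line moved, and acs5D gives a further level. Fitted over the 9 arrays of the 3 lines, 3672 probe sets (16.1%) differed between acs6E and acs5D and 2995 (13.2%) between acs9B and acs5D. These comparisons share the acs5D arrays with each other and the acs6E and acs9B arrays with the choice of the genes, so their values are given side by side as a description. Of the 15 genes with the largest rise, acs6E was called above acs5D in 15 (8.62% of all probe sets were) and acs9B below it in 13 (7.14%). For the 15 with the largest fall, acs6E was called below acs5D in 14 (7.52%) and acs9B above it in 9 (6.03%). Among genes with a symbol the counts were 15 and 15 for the rises, and 14 and 12 for the falls.

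For HYH acs5D stood between the lines, at 7.16, 6.83 and 7.03: acs6E differed from it by 1.08 ± 0.10 and acs9B by -1.26 ± 0.10. IAA29 (-0.85 and 0.92) and BZIP61 (-0.67 and 0.93) were likewise placed, with acs6E below and acs9B above acs5D. In other genes 1 line alone stood off from acs5D, which is itself a mutant line. For EXLA1 the other single lines ran from 7.60 in acs2B to 9.67 in acs1A. EXLA1 in acs5D was at 8.00, 8.12 and 8.25, the level of acs6E, from which acs6E differed by 0.084 ± 0.12 (limma adjusted p = 0.73) and acs9B by 2.09 ± 0.12 (limma adjusted p = 6.5e-07). XTH33 (0.18 and 1.22), EXLA2 (0.041 and 0.87), ndhK (0.13 and 0.87) and ndhJ (0.13 and 0.68) had acs9B called above acs5D and acs6E not called.

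The reverse held for genes in which acs9B was not called against acs5D. AT4G19430, at 3.99, 3.97 and 4.05 in acs5D and as low in acs9B, was higher in acs6E than in acs5D by 2.35 ± 0.080 (limma adjusted p = 2e-09), with acs9B at -0.11 ± 0.080. Levels this low are near background, where RMA compresses differences, so a difference between acs9B and acs5D could be missed. WRKY22 (acs6E -1.25, acs9B 0.011), GAT1_2.1 (-1.11 and -0.010), AT3G15450 (-2.33 and 0.088), AT3G62950 (-2.57 and -0.14) and AT4G16870 (-1.999 and -0.093) had acs6E called below acs5D. QQS was a case of its own: its small difference between acs6E and acs9B came with levels of 8.30, 8.41 and 8.40 in acs5D, from which acs6E differed by -2.65 and acs9B by -2.33.

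**Figure D4:**
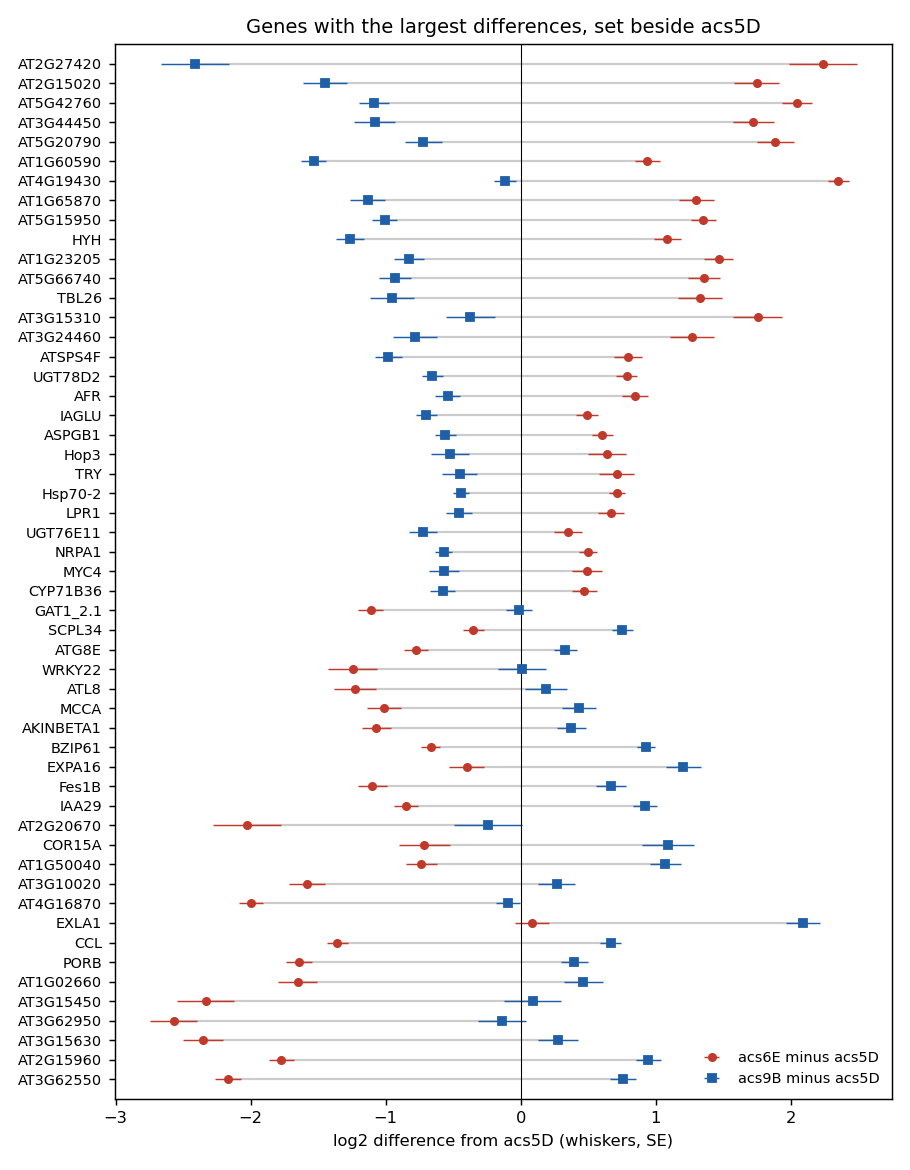
Log2 difference from acs5D of acs6E (red circles) and acs9B (blue squares), with the SE, for the 53 genes named for the largest differences between acs6E and acs9B. Genes higher in acs6E (top) have acs6E to the right of 0 and acs9B to the left, some close to 0. Of the genes lower in acs6E (bottom), EXLA1 has acs6E near 0. Several others, such as WRKY22, GAT1_2.1, AT4G16870, AT3G62950 and AT3G15450, have acs9B near 0.

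Levels in the other 6 single lines are given as a description. Only acs5D shares the bioC level of acs6E and acs9B on every array: acs1A, acs2C, acs4A and acs5C lay at 7.07 to 7.50 and acs2B at 7.30 to 9.02, and the part of this in the levels was not tested. Among the 15 genes with the largest rise, the acs6E mean lay above every other line in 11 and the acs9B mean below every other line in 10. Among the 15 with the largest fall, acs6E lay below all other lines in 13 and acs9B above them in 8. For AT2G27420 the other lines ran from 5.07 in acs2C to 9.59 in acs2B, and for CCL from 9.85 in acs2B to 11.26 in acs2C, with acs2B at the acs6E end and acs2C at the acs9B end. Of the 28 named genes that were higher in acs6E, acs2B was the highest of the other lines in 27 and acs2C the lowest in 25. Of the 25 that were lower, acs2B was the lowest in 21 and acs2C the highest in 17, with exceptions such as AT3G62950 (acs4A lowest, acs5C highest) and COR15A (acs5D lowest, acs5C highest). These genes were chosen for their difference between acs6E and acs9B, and acs2B and acs2C are both named for ACS2. No such counts were made over all probe sets, so whether these differ from the share in other genes is not known.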

How the data were processed

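RNA from 10-day-old seedlings was measured on Affymetrix arrays, 3 for acs6E and 3 for acs9B. Each array's deposited file column holds log2 values that the authors made with RMA, per the submitters' processing notes. Neither the version nor the arrays normalized together are stated in the sources used. RMA corrects background, equalises the distributions of arrays and summarises probes, which compresses differences of dim probe sets. Signals of the probe sets of different genes were not set against each other.

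Names of probe sets come from the platform's annotation, updated through the RefSeq gene table of TAIR10.1. Of 22810 probe sets 64 controls were left out and 22746 tested; 13513 had 1 gene (11933 by locus code only), 503 several and 8730 were unnamed here. The 6 arrays were fitted by limma 3.58.1 under R 4.3.3 (lmFit, eBayes) without a filter, with two-sided p-values adjusted by Benjamini-Hochberg, and tested on simulated data. The 45 added control transcripts were fitted apart. acs5D was fitted with both lines over 9 arrays. Replicate numbers did not pair the arrays (deviation correlations of same-numbered arrays -0.108, 0.00609 and -0.113). The number of arrays limits the precision, and p-values reflect the spread between these arrays, which may be technical.

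Named genes are the 15 with the largest rise and fall among called genes whose arrays do not overlap, the same among genes with a symbol, and called list members; a selection is described. Of 22 lists written by hand, 87 of 499 loci had a named probe set; 22 families were read from annotation names. The families, such as the UDP-glycosyltransferases, overlap the lists. The members and lists were chosen with earlier results of these data known. Alternatives were other sets of arrays, other scalings, a filter on level, trend and robust priors, a replicate block and leaving out each array.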

Additional observations from a re-analysis of the deposited data

How the results depend on the processing

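The number of probe sets called stayed between 5118 (without acs6E replicate 3) and 7705 (9 arrays of 3 lines) over the 14 alternatives that change the fit, against 7020 in the comparison as reported. Counting every probe set of a gene took the higher mitochondrial count from 1 to 2 and changed no other list count. With the replicate block 6411 were called, of which 6243 were among the 7020, although the numbers do not pair the arrays. Centring arrays on their medians gave 7453 calls, of which 42.5% were higher in acs6E, against 51.5% of the reported calls. No named gene changed direction under any alternative, and 53 of 199 named or listed genes lost their call under at least 1. None of the genes named for the largest differences did. Those were chosen as called, without overlap and with large differences on the same arrays, so this partly follows from the choice. With the Col arrays in the fit the higher GH9 cellulases went from 4 to 2, and the higher defensins and thionins from 3 to 1, as they did in the fit of the 24 arrays of the lines. Leaving out 1 array at a time gave 3 to 7 higher CYP71B genes, 3 to 5 higher SWEET genes, 3 to 5 lower auxin genes, 2 to 4 lower genes of branched-chain amino acid breakdown, 2 to 4 lower chlorophyll genes and 1 to 3 lower mitochondrial genes; the cause was not tested. Of 53 list counts under 3, where 1 gene is a large share, 28 changed under at least 1 alternative; the widest ranges were 0 to 5 for higher expansins and XTH genes (2 as reported), 0 to 3 for lower nuclear photosynthesis genes (0 as reported) and 1 to 4 for lower plastid photosystem genes (2 as reported). The filter on level was not applied to the lists. Probe sets near background are the least certain, because RMA compresses their differences.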
